A study of Bos taurus and Cervus elaphus with 24 samples.

Results

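The cytosolic ribosome is built from a large and a small subunit, and each of its proteins is encoded by a nuclear gene. Cytosolic ribosomal protein genes were followed in the blood of cattle and deer in the dry period, when the udder rests ahead of calving, and at peak lactation. Members were all probes whose gene name in the array files is RPL or RPS with a number (with or without A, X, Y, L, AL or L1 behind it), RPLP0 to RPLP2, or RPSA. The rule found 83 genes of 25232 gene names, and 307 of 43653 probes outside the controls. The set holds 51 large subunit genes and 32 small subunit genes, and each gene was represented by its probe with the highest mean Cy5 signal over the 24 arrays.

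The 24 arrays form 6 groups of 4. They cover dairy cattle of the breeds Holstein-Friesian (HF) and Polish Red (PR) as well as deer (Cervus elaphus), with a dry and a lactation group for each. Every animal gave a sample in each state according to the series design, and a subject number in the sample titles was taken to mark the same animal. No treatment is named for any group and ages are not given. The Cy5 dye carried the RNA of the animal, and the Cy3 dye carried a pool from 20 cattle outside the groups, which was the same in all groups. Each value is the log2 ratio of the animal over that pool, so the deer were measured on cattle probes and against cattle RNA. The RNA came from whole blood drawn into a fixing tube, and the source is labelled as peripheral blood nuclear cells.

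Ribosomal protein messages belong to the most abundant of most cells and carry a pyrimidine tract at the start that couples their translation to the mTORC1 pathway. In blood they are rich in lymphocytes and poor in mature neutrophils, and a blood sample holds both. In bulk blood, fewer cells of a type and less RNA per cell cannot be told apart.

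The probes are 60 bases long and were designed on cattle sequence. The sequences that follow belong to genes whose values the results turn on, and for 5 of the 6 genes with a pair of sequences they show a probe that was lower in deer than in cattle and a probe of the same gene that was not. The RPS2 pair is shown because its probes overlap. They are given 5′ to 3′ as the files hold them. Where the probe may reach past the coding part, its last 30 bases are shown. Capitals mark the hexamer AATAAA, except in the RPS2 pair, where they mark the base at which the probes differ. Near the end of a message this hexamer is the usual signal for its cleavage, but the mark does not show that it acts so. In the second RPL39 sequence it opens a reading frame that has no stop codon before the closing taa.
RPL39, lower in deer, last 30 bases: tgagacccagcAATAAAtataaaacgttgc
RPL39, not lower in deer: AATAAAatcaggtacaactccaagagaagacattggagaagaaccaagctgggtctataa
RPS21, lower in deer, last 30 bases: ttgttataAATAAAtagtgaaaacttaaaa
RPS21, higher in deer: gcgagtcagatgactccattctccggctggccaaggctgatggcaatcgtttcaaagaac
RPSA, lower in deer, last 30 bases: ccaccaaaatggaaatttggttgatggaaa
RPSA, higher in deer: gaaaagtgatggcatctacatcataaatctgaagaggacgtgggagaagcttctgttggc
RPLP0, lower in deer, last 30 bases: gaaatgagaaAATAAAggcttacttctctt
RPLP0, higher in deer: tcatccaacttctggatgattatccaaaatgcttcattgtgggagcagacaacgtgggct
RPS27, lower in deer, last 30 bases: taaacacgttttggatacatcctgaaaaaa
RPS27, higher in deer: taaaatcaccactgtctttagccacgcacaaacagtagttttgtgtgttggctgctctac
RPL31, higher in deer in the dry period: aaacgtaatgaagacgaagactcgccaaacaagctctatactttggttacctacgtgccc
RPS2, first probe: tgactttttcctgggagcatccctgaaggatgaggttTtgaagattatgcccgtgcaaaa
RPS2, second probe: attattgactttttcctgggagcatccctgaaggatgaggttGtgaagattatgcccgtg
The array files place these probes on the UMD 3.1 cattle assembly, and some placements are longer or shorter than the probe. The RPL39 probes lie on the minus strand at chrX:3997932-3997991 and chrX:3998086-3999606, and the RPS21 probes on the minus strand at chr13:55358719-55358775 and chr13:55358619-55358632. The RPSA probes lie on the plus strand at chr22:12741581-12741640 and chr22:12729853-12731027. The RPLP0 probes lie on the minus strand at chr17:64809254-64809313 and chr17:64811907-64812920. The RPS27 probes are placed on the minus strand of different chromosomes, at chr3:16505732-16505785 and chr6:27014826-27014885. RPL31 lies on the plus strand at chr11:6008068-6008127, and the RPS2 probes lie on the minus strand at chr25:1521711-1521770 and chr25:1521716-1521775. Exon and untranslated region assignments were not made, because the gene annotation at hand is on another assembly. Probes of 9 of the 83 genes were placed on more than 1 chromosome (RPL12, RPL17, RPL27A, RPL31, RPL35A, RPL36, RPS19, RPS27 and RPS28), so signal from other copies of these genes cannot be told apart from the gene itself.

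All but 1 of the members were bright, and 82 of 83 were well above background on all 24 arrays. RPL3L, a copy of RPL3 known from muscle, was above background on 2 to 4 arrays of each group. On PR dry replicate 1, 43635 probes were above background and 703 spots were outliers, the raw median Cy5 was 2036, and the spike-in correlation was 0.331. On the arrays of HF animals 2 and 3 the spike-in correlation was 0.174 to 0.401. The interquartile range of the log2 ratios of all probes was 0.14 and 0.25 on deer lactation replicates 2 and 4. On the other deer arrays it was 0.48 to 0.53. The arrays lay on 10 slides, and no slide held both deer and cattle. Each HF animal had both of its arrays on a slide of its own, apart from 1 PR array on the slide of HF animal 4.

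The array medians of the members give the first view of the set. In HF they were 0.13, 0.46, -0.01 and 0.12 in the dry period and 0.08, 0.12, 0.17 and -0.07 at peak lactation, in the order of animals 1 to 4. In PR they were -0.60, 0.16, -0.20 and -0.03 in the dry period and 0.04, 0.21, 0.16 and 0.16 at peak lactation. In deer they were -0.04, 0.01, 0.22 and -0.22 in the dry period and 0.44, 0.15, 0.10 and 0.10 at peak lactation. The ranges of both states overlapped in each breed and in deer. The widest spread stood in PR dry, whose lowest array was the replicate 1 named above, and the mean over arrays there was -0.17 ± 0.32 (SD, n = 4) against 0.14 ± 0.07 (SD, n = 4) at peak lactation. Large and small subunit genes moved together within an animal: the direction of the change was the same for both medians in each of the 12 animals.

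**Figure D1:**
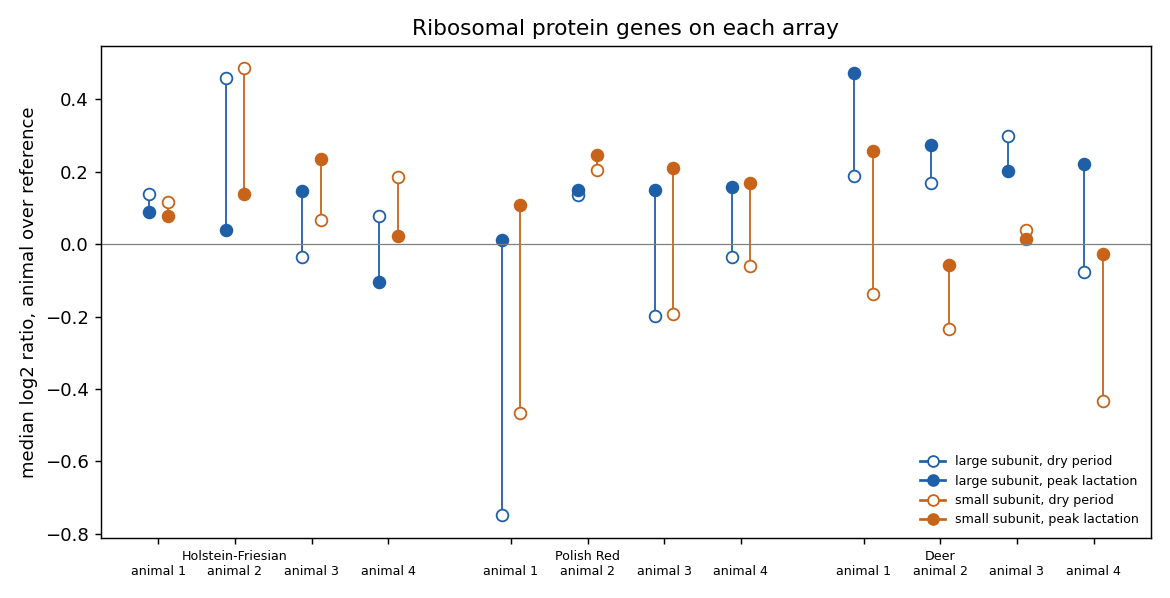
Median log2 ratio (animal over cattle reference) of the 51 large and 32 small subunit genes on each array, with open circles for the dry period, filled circles for peak lactation and a line joining both samples of an animal. PR dry replicate 1 has the lowest medians, -0.75 for large and -0.47 for small subunit genes, and on all deer arrays the small subunit median lies below that of the large subunit.

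In Holstein-Friesian cattle no ribosomal protein gene passed the test between peak lactation and the dry period (limma, adjusted p under 0.05), where 0.00906% of all probes did. The median difference of the 83 genes was -0.11, beside -0.01 over all probes tested and -0.07 over 236 bright probes outside the set. Of the 83 differences 77 were below 0, where 47.2% of all probes were above 0. Large and small subunit genes had the same median to this precision, -0.11 and -0.11. At an unadjusted p under 0.05, 7 members were lower and 0 higher, where 3.1% and 5.02% of all probes were. The dry and lactation arrays did not overlap for 7 members, all lower at peak lactation, where 3.1% of all probes did so. By animal the median change was -0.06, -0.33, 0.11 and -0.17, so animal 3 went the other way, with 51 members higher. Without HF dry replicate 2 the median was -0.02.

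Among the members lower in all 4 HF animals (16, beside 11.6% of all probes), the lowest were RPS28, RPL35, RPS15 and RPL10A. RPS28 is a small protein of the 40S subunit. Its dry values were 0.72, 0.86, 0.87 and 0.63 and its lactation values 0.51, 0.41, 0.24 and 0.60. All 4 lactation values lay below all dry values, and the difference was -0.33 (SE 0.116, limma adjusted p = 0.420). RPL35, which sits near the exit of the peptide tunnel, had a difference of -0.27 (limma adjusted p = 0.722). RPS15 had -0.26 (limma adjusted p = 0.561) and RPL10A had -0.21 (limma adjusted p = 0.714). Among the members lower in all 4 animals with the smallest differences were RPL15 at -0.13 and RPL36 at -0.13. The single gene higher in all 4 animals, where 12.3% of all probes were, was RPL3L at 0.12 (limma adjusted p = 0.929), whose probe lay near background.

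In Polish Red cattle no member passed the test either (0% of all probes did), although the set was shifted upward at peak lactation. The median difference was 0.26, beside 0.02 over all probes and 0.02 over 236 bright probes outside the set. Of the 83 members 78 were above 0, where 56.1% of all probes were. At an unadjusted p under 0.05, 30 members were higher and 0 lower, where 4.37% and 1.67% of all probes were. The median was 0.29 for large and 0.17 for small subunit genes. In all 4 animals 29 members were higher and 0 lower, where 5.61% and 5.3% of all probes were. The median change by animal was 0.62, 0.04, 0.33 and 0.20. Without PR dry replicate 1 the median was 0.12, with 72 of 83 members above 0.

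RPL39, a short protein lining the peptide exit tunnel, had the largest difference among the members higher in all 4 PR animals. Its log2 ratios were -0.81, -0.08, -0.62 and -0.39 in the dry period and 0.76, 0.30, 0.25 and 0.39 at peak lactation. Every lactation value lay above every dry value, and the difference was 0.90 (SE 0.191, limma adjusted p = 0.533). RPS27, a zinc finger protein of the small subunit, went from -1.01, -0.01, -0.55 and -0.21 to 0.43, 0.29, 0.18 and 0.36. These groups did not overlap either, and the difference was 0.76 (SE 0.206, limma adjusted p = 0.797).

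RPL31, a protein near the tunnel exit, had dry values of -0.69, 0.37, -0.36 and -0.01 and lactation values of 0.60, 0.54, 0.45 and 0.47. RPS21, a small protein of the 40S subunit, had dry values of -1.19, -0.04, -0.54 and -0.13 and lactation values of 0.36, -0.01, 0.25 and 0.12. Neither pair of groups overlapped, with differences of 0.69 for RPL31 and 0.66 for RPS21 (limma adjusted p = 0.797 for each). RPL39, RPS27, RPL31 and RPS21 were the 4 members whose PR groups did not overlap, all higher, where 0.96% of all probes did so. Without PR dry replicate 1 their differences were 0.79, 0.57, 0.52 and 0.42, in the same order.

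The same 4 genes are the members in the authors' deposited table for PR, with 10 probes of 158, or 6.33% of that table, where ribosomal protein probes are 0.703% of the array. In the authors' deposited table the probe of RPL39 shown as lower in deer had a mean of -0.43 in the PR dry group and 0.42 at peak lactation. Tukey's comparison after a one-way analysis of variance, run here on the same log2 ratios without adjustment over probes, picked these 4 genes (0.399% of all probes passed), and 0 passed after Benjamini-Hochberg adjustment (0% of all probes). In HF it picked 0 members (1.09% of all probes). The list was chosen by the authors on these samples and is not independent evidence. Not every probe of these genes had the difference. Of the 7 RPL31 probes, the shown one had 0.66 and the one that represents the gene 0.69, while 1 other had 0.02. The RPS27 probe not shown had -0.12 and the RPL39 probe not shown had 0.44, against 0.59 to 0.66 for the 4 probes of RPS21.

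**Figure D2:**
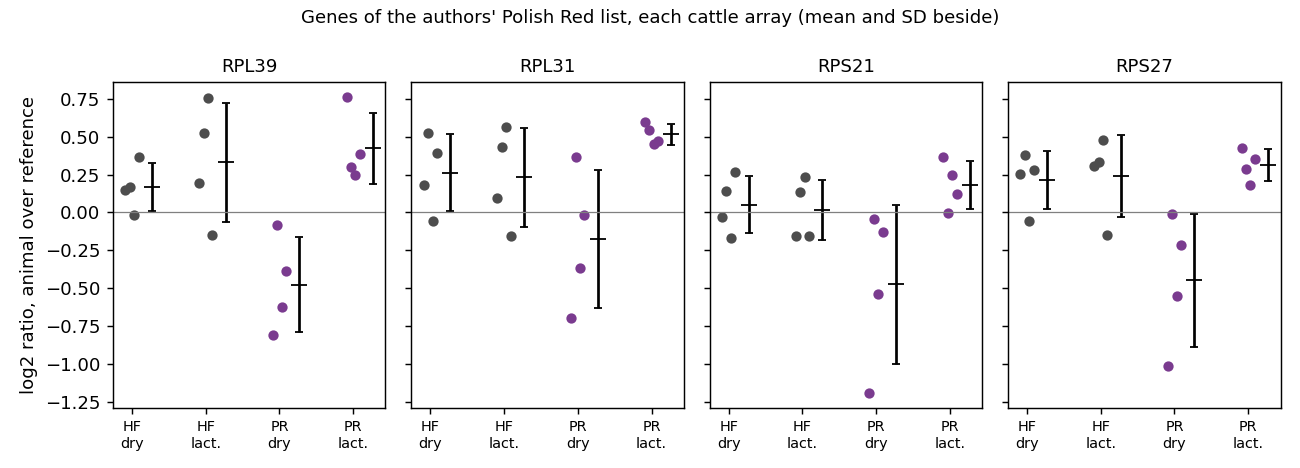
Log2 ratio (animal over cattle reference) of RPL39, RPL31, RPS21 and RPS27 on each of the 16 cattle arrays, with the mean and SD of each group of 4 beside the points. In PR all 4 lactation points lie above all 4 dry points for each gene, while the HF groups overlap.

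Other members higher in all 4 PR animals had wider spread. RPS24, a small subunit protein needed for rRNA processing, had dry values of -1.89, 0.64, -0.60 and -0.35 and lactation values of -0.02, 0.67, 0.21 and 0.41. RPL36AL, a second copy of RPL36A, ran from -2.57, 0.05, -0.97 and -0.61 to -0.57, 0.07, -0.14 and -0.11. Replicate 1 in the dry period was the lowest value for both genes, and the groups overlapped. Their differences were 0.86 and 0.84 (limma adjusted p = 0.797 for each). The smallest differences among the 29 were those of RPL13 at 0.08, RPL15 at 0.12, RPL38 at 0.23 and RPL36 at 0.25.

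The PR difference was also read by the base composition of the probe. In the 31 members whose probe had 35 to 40% G and C the median was 0.43, in the 40 members in the middle range it was 0.20, and in the 12 members with 46.7 to 55% it was 0.20 as well, beside 0.08, 0.01 and -0.02 over all probes of the same ranges. Over both subunits together the median was thus larger in the lowest range alone, but neither subunit had this pattern. In the same order of ranges it was 0.44, 0.29 and 0.20 for large and 0.22, 0.15 and 0.34 for small subunit genes. Over the 83 members the PR difference correlated with the share of G and C at a Pearson r of -0.24 (across genes, which are not independent replicates). On the same slide, the PR median change was 0.62 on the slide of animal 1, 0.27 between dry 3 and lactation 2, and 0.19 between dry 4 and lactations 3 and 4. The part of base composition in the PR difference was not tested.

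In deer no member passed the test between states (0.00599% of all probes did), and the set again lay above 0 at peak lactation. The median difference was 0.17, beside 0.01 over all probes and 0.02 over 236 bright probes outside the set. Of 82 tested members 78 were above 0, where 52.4% of all probes were. Large and small subunit medians were 0.17 and 0.18. At an unadjusted p under 0.05, 10 members were higher, where 5.65% of all probes were. The groups of 6 members did not overlap, all higher at peak lactation, where 2.31% of all probes did so. By animal the median change was 0.40, 0.11, -0.11 and 0.31, and in animal 3 only 20 members were higher. Dry replicates 1, 2 and 4 lay on a slide without lactation arrays, and lactation replicates 2 and 3 on a slide without dry arrays. State and slide thus cannot be fully told apart in deer. On the slide that held 1 dry and 2 lactation arrays the median was 0.05, with 52 of 83 members higher. With slide as a block it was 0.05, which rests on that slide alone. With array weights in the fit 17 of 82 members (20.7%) were called, 16 of them higher, where 19.8% of all probes were called in that fit, a share near that of the members. Without deer lactation replicate 1 the median was 0.09, and without deer dry replicate 4 it was 0.10.

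RPS2, a protein at the entry of the messenger channel, had dry values of -1.56, -1.64, -1.41 and -1.87 in deer and lactation values of -1.41, -1.01, -1.41 and -1.25. The groups met at -1.41, and the difference was 0.35 (SE 0.101, limma adjusted p = 0.409), or -0.30 with scale normalization between arrays. It is the member in the authors' deposited table for deer, where 1 probe of 576 (0.174%) is a ribosomal protein probe. RPLP0, the stalk base of the large subunit, had -0.59, -0.52, -0.59 and -0.64 in the dry period and -0.50, -0.11, -0.22 and -0.40 at peak lactation. Its groups did not overlap, and the difference was 0.28 (limma adjusted p = 0.421). RPL38 had 0.38 (limma adjusted p = 0.409) and RPL29 had 0.24 (limma adjusted p = 0.421), each higher in 3 of 4 animals. These 4 passed Tukey's comparison before adjustment, where 1.1% of all probes did, and 0 members passed after it.

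Among the 13 members higher in all 4 deer (9.64% of all probes were), the largest differences were those of RPL26L1, a second copy of RPL26, at 0.47, RPS2 at 0.35, RPL22L1 at 0.33 and RPLP1, a stalk protein, at 0.29. The smallest were RPL19 at 0.08, RPS26 and RPS3A at 0.25 and RPL6 at 0.25. The difference of RPL22L1, a second copy of RPL22, was below 0 under median centring without loess (-0.00) and scale normalization (-0.68). It was -1.65 with a setting of Cy5 alone that is not the channel reading given below. Under scale normalization RPL26L1 and RPS2 were below 0 as well. By animal the changes were 0.37, 0.75, 0.20 and 0.57 for RPL26L1 and 0.15, 0.64, 0.005 and 0.62 for RPS2. Those of RPL22L1 were 0.30, 0.31, 0.35 and 0.36. The lactation arrays of animals 2 and 4 are those with the narrow range of ratios, whose part was not tested.

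**Figure D3:**
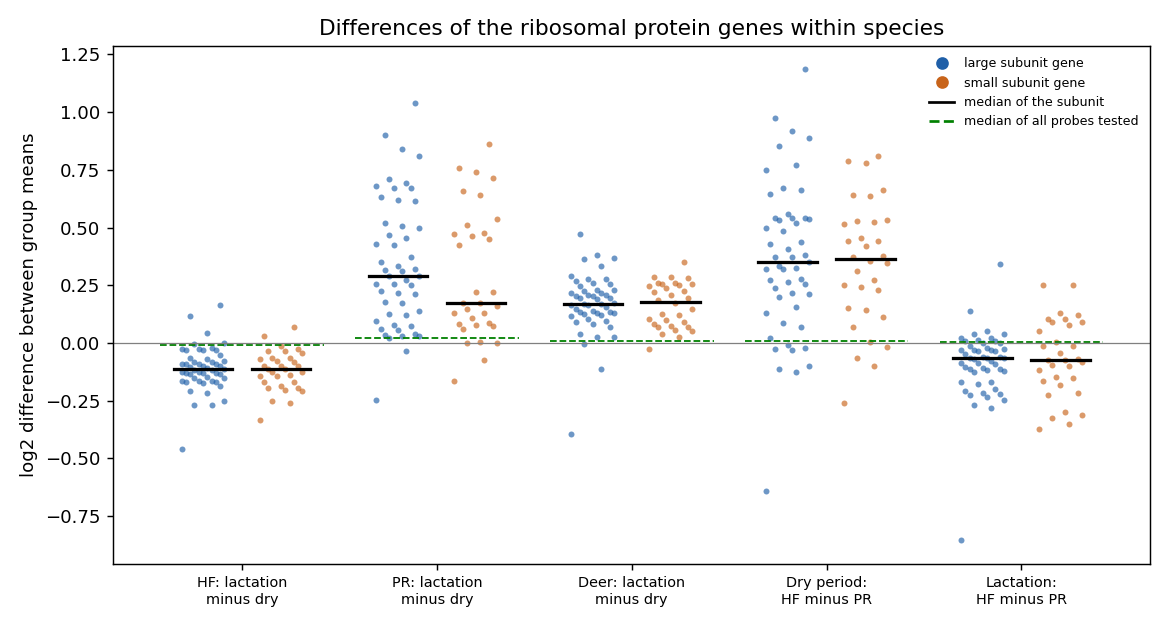
Log2 difference between group means for each large and small subunit gene in 5 comparisons within a species, with the median of each subunit (black) and of all probes tested (dashed). The genes lie mostly below 0 in HF (77 of 83) and mostly above 0 in PR (78 of 83) and deer (78 of 82) at peak lactation.

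The change of state differed between HF and PR by -0.38 in the median of the members, with 81 of 83 below 0, beside -0.03 over all probes, of which 44.2% were above 0. No member passed the test of that difference (limma, 0% of all probes did), and at an unadjusted p under 0.05, 23 members were lower, where 1.77% of all probes were. The lowest were RPL22 at -1.18, RPS24 at -1.11 and RPL36AL at -0.95 (limma adjusted p = 0.997 for each). The highest were RPL3L at 0.08, RPL10L at 0.01 and RPLP0 at -0.04. The median was -0.42 for large and -0.31 for small subunit genes, and without PR dry replicate 1 the median of all members was -0.26. This comparison, the PR change and HF against PR in the dry period share the PR dry arrays and are not independent. The mean of the array medians there was -0.17, against 0.07 to 0.18 in the other cattle groups.

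The change in deer exceeded the mean change of both cattle breeds by 0.09 in the median, with 55 of 83 members above 0 where 51.7% of all probes were. No member passed the test (0% of all probes did), and 10 were higher at an unadjusted p under 0.05, where 4.81% of all probes were. RPL22L1 had 0.69, RPS28 had 0.44 and RPS2 had 0.39 at the upper end (limma adjusted p = 0.551, 0.515 and 0.513). RPL10L at -0.43, RPL22 at -0.33 and RPS27 at -0.31 lay at the lower end. Scale normalization turned the sign of RPL22L1, RPS28, RPS2, RPL10L and RPL22. In deer the change of RPL10L by animal was -0.16, -1.18, 0.62 and -0.86. Without deer lactation replicates 2 and 4, which had the narrow range of ratios, RPL10L was above 0. This comparison and that of the breeds share the cattle arrays.

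Between the breeds in the dry period, 71 of 83 members were above 0 in HF relative to PR, with a median of 0.36 beside 0.01 over all probes, of which 51.7% were above 0. RPS26, a protein at the messenger exit of the small subunit, was the single member that passed the test, where 3.17% of all probes passed, and 2.75% were higher. Its values were 0.42, 0.62, 0.44 and 0.54 in HF dry and -0.17, 0.51, -0.10 and 0.02 in PR dry, so PR replicate 2 lay among the HF values and the groups overlapped. The difference was 0.44 (SE 0.117, limma adjusted p = 0.0437), and 7 of 7 RPS26 probes were above 0. The call of RPS26 was lost when any of 7 of the 8 arrays was left out, and without PR dry replicate 2 the count was 45 members (54.2%), where 13.4% of all probes passed in that fit. With slide as a block the RPS26 difference was 0.05, which rests on PR replicate 2, the PR array on a slide with HF arrays.

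At an unadjusted p under 0.05, 48 members were higher in HF dry than in PR dry and 2 were lower, where 15.2% and 7.2% of all probes were. The groups of 7 members did not overlap, all higher in HF, where 6.05% of all probes did so. Tukey's comparison picked 8 members before adjustment (5.34% of all probes) and 0 after it (0.00607%). The largest differences were those of RPL22 at 1.18 (limma adjusted p = 0.0729), RPL36AL at 0.97 (limma adjusted p = 0.111) and RPL26L1 at 0.92 (limma adjusted p = 0.0524). RPL22 was -2.45, 0.42, -0.80 and -0.81 in PR dry and 0.14, 0.68, -0.09 and 0.37 in HF dry. Among the lowest were RPL22L1 at -0.64 and RPL10L at -0.12. On the slide that holds both HF and PR dry arrays, HF animal 4 and PR animal 2 differed by -0.03 in the median, with 37 members higher. With slide as a block the median was -0.04, but the breeds shared only that slide, so this value rests on the same PR array. Without PR dry replicate 1 the median was 0.20.

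Between the breeds at peak lactation no member passed the test (0.0121% of all probes did). The median was -0.07, with 61 of 83 members below 0 where 51.5% of all probes were above 0. It was 0.13 without loess and -0.51 with slide as a block. No slide held lactation arrays of both breeds, so the block value was reached only through the PR dry array on an HF slide. RPL22L1 had the lowest difference, -0.85 (limma adjusted p = 0.0959). Its values were -0.32, -0.65, -1.08 and -0.57 in HF and -0.20, 0.34, 0.68 and -0.03 in PR, so all HF values lay below all PR values. The groups of 6 members did not overlap in this direction, where 5.29% of all probes did so. At an unadjusted p under 0.05, 10 members were lower, where 7.55% of all probes were, and Tukey's comparison picked 2 members, RPL22L1 among them (2.93% of all probes). RPS9, a small subunit protein, had -0.35 (limma adjusted p = 0.209). RPL26L1 at 0.34, RPS4X at 0.25 and RPS27L at 0.25 lay at the upper end.

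Deer against cattle gave calls in both directions, and probes of 1 gene were often called in opposite directions. In the dry period 31 members were higher and 30 lower in deer than in the mean of both breeds (limma, adjusted p under 0.05), where 57.4% of all probes passed, 26.7% higher and 30.7% lower. At peak lactation 30 were higher and 26 lower, where 49.3% of all probes passed, 22.2% higher and 27.2% lower. The medians were -0.01 and 0.08, beside 0.01 and -0.00 over all probes and -0.36 and -0.15 over 236 bright probes outside the set. In the dry period the large subunit median was 0.07 and the small subunit median -0.24. Deer and cattle shared no slide, so species and slide cannot be told apart in these values.

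RPL39 was the lowest member, at -5.52, -5.36, -4.95 and -5.41 in deer dry against cattle values from -0.81 to 0.37 in the same state. The difference was -5.16 (SE 0.166, limma adjusted p = 8.42e-16). RPSA, the laminin receptor protein of the small subunit, was -4.24, -4.38, -4.35 and -4.25 in deer dry against -0.10 to 0.38 in cattle. RPSA differed by -4.39 (SE 0.0872, limma adjusted p = 2.37e-19). RPL15 at -4.00, RPL7L1 at -3.78, RPS16 at -3.75, RPL14 at -2.82, RPS28 at -2.58 and RPS2 at -1.99 were also lower. RPL10L, a copy of RPL10 known from testis, was the highest at 3.15, with 3.49, 3.12, 2.97 and 3.17 in deer dry and -0.06 to 0.25 in cattle dry. RPS27L at 1.47 and RPL27 at 1.45 followed. At peak lactation the same members had -5.43 for RPL39, -4.36 for RPSA, -4.00 for RPL15 and 2.72 for RPL10L.

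Other probes of some of these genes had other differences. RPL10L had only 1 probe, so its value could not be set beside another. The RPL27 probes were all called higher, from 1.20 to 2.25. For RPL39 the second probe shown above had 0.29 (limma adjusted p = 0.195), against -5.16 for the first, and the probe not shown had -0.76 (limma adjusted p = 0.00658). The second RPSA probe had 0.50. Of the 4 RPS21 probes the shown ones had -4.35 and 1.06, and the others lay at -2.98 and 1.55. The probes shown had -1.47 and 1.37 for RPLP0, and -1.26 and 1.01 for RPS27. In PR the paired probes of RPS21 had 0.59 and 0.66 between states, and those of RPS27 had 0.76 and 0.80, so these pairs lay close together between states and far apart between species. The median range within a gene, over the 75 genes with 2 or more tested probes, was 0.07 in HF and 0.16 in PR between states, and 1.09 between deer and cattle in the dry period.

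In the dry period 28 of the 75 genes (37.3%) had probes called in both directions, and at peak lactation 23 (30.7%) had. Over all genes on the array with 2 or more tested probes the shares were 16.3% and 12.6%, but the members had more probes, with a median of 3 against 2. Among genes with 2 to 4 tested probes the shares were 32.1% of 53 members and 14.8% of all genes in the dry period, and 22.6% and 11.4% at peak lactation. RPL22L1 had probes from -4.06 to 3.38 and RPL9 had probes from -5.37 to 1.17. In 10 of the 75 genes (beside 917 of all 8585 such genes) all probes were called higher in deer in the dry period (among them RPL17, RPL19, RPL27, RPL28, RPL30, RPL35A, RPL36, RPS15A and RPS20), and in 6 (beside 1036 of 8585) all were called lower (among them RPL18, RPS12, RPS18, RPS2 and RPS28). The RPS2 probes shown share 55 bases and differ within them by T38G, counted from 1 at the 5′ end of the first probe. The first had -2.64 and the second -3.59 between deer and cattle in the dry period.

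Probes were also sorted by whether any of their 3 forward reading frames is free of stop codons. A probe with no such frame cannot lie wholly in coding sequence ahead of the stop codon. Of the 57 member probes without such a frame, 36 were called lower and 10 higher in deer in the dry period, with a median of -0.63. Of the 237 with such a frame, 71 were called lower and 94 higher, with a median of 0.18. Over all probes on the array the medians were -0.14 and 0.02, 42.6% and 28.7% were called lower, and 22% and 27.5% were called higher. Within the 34 genes that have both kinds, the probes without such a frame were lower in 21. The hexamer AATAAA stood on the given strand in 25.1% of member probes and 9.35% of all probes, and on either strand in 26.7% and 12.5%. Member probes that hold it on the given strand had a median of -0.23 between deer and cattle in the dry period and the others 0.13, beside -0.09 and 0.01 over all probes. They were called lower in 38 of 76 and the others in 69 of 218, where 40.6% and 29.6% of all probes were. At peak lactation the member medians were -0.11 and 0.17, beside -0.08 and 0.00 over all probes.

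**Figure D4:**
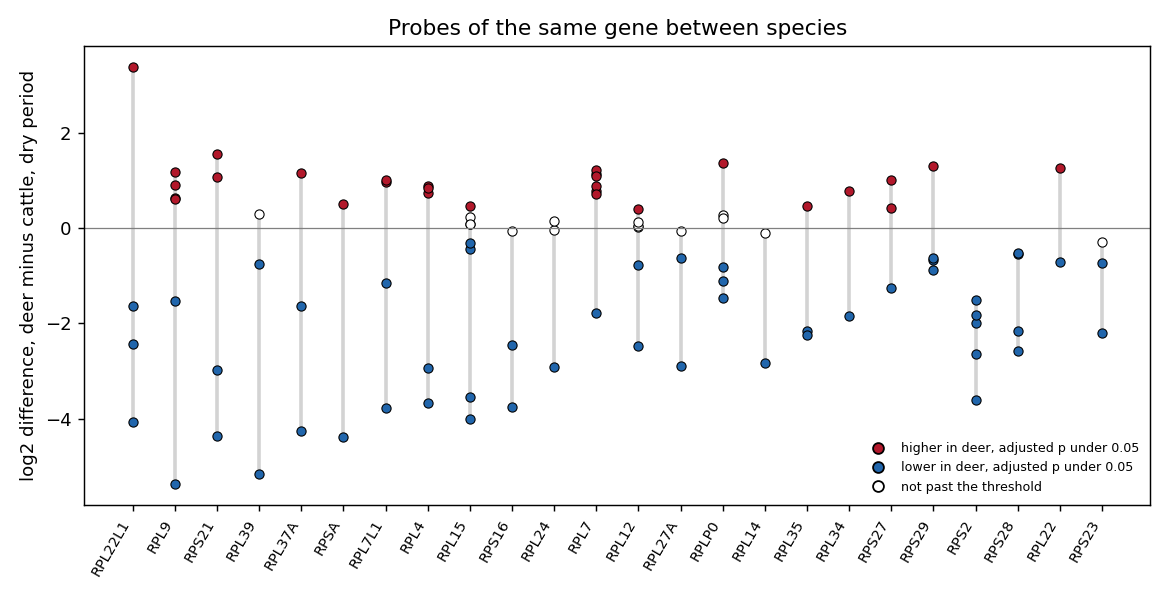
Log2 difference between deer and the mean of both cattle breeds in the dry period for each tested probe of the 24 genes with the widest range among their probes, coloured by the call of limma. RPL22L1 spans -4.06 to 3.38, while all 5 RPS2 probes lie below 0.

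The Cy3 channel, which carried the same cattle pool on every array, was read alone beside these results. Between states its member medians were 0.03 in HF, -0.05 in PR and -0.08 in deer, beside -0.01, 0.11 and -0.01 over all probes. Those of Cy5 alone were -0.09, 0.18 and 0.11, beside -0.02, 0.12 and 0.02. Single members ranged more widely in Cy3, from -0.09 to 0.21 in HF, -0.81 to 0.58 in PR and -1.91 to 0.32 in deer. In Cy5 they ranged from -0.35 to 0.16, -0.77 to 1.48 and -1.58 to 0.36. No member was called in Cy3 between states, where 0% of all probes were. Between deer and cattle, 26 members were called higher in Cy3 in the dry period and 0 lower, where 3.36% of all probes were called, and 21 were called higher at peak lactation, where 4.12% were. The Cy3 medians of the members were 0.20 and 0.13, beside 0.12 and 0.08 over all probes. The part of the reference channel in the member ratios between states or species was not tested.

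The small subunit median lay below the large subunit median on all 8 deer arrays. In cattle it lay above on 13 of 16 arrays. In deer dry the array means were 0.14 ± 0.16 (SD, n = 4) for large and -0.19 ± 0.20 (SD, n = 4) for small subunit genes. Probes of 1 gene differed between species, as given above.

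Genes that work with the ribosome were listed beside the set. Of 25 tested translation elongation and other genes with the same start motif, 0 passed the test between states in HF, PR or deer, with medians of -0.04, 0.20 and 0.18. Of 50 ribosome assembly genes 0 passed, with medians of -0.06, 0.14 and 0.17. Of 14 ribosome rescue genes 0 passed, with medians of -0.05, 0.10 and 0.03, and of 15 genes of mTORC1 and its regulators 0 passed, with medians of -0.00, 0.06 and 0.10. The 5 ribosomal proteins outside the naming rule had -0.08, 0.10 and -0.01. Between HF and PR in the dry period, 9 of the 50 assembly genes were higher and 1 lower, where 2.75% and 0.428% of all probes were, with a median of 0.39. With slide as a block, which joins the breeds only through the PR array on an HF slide, 0 of them were called. In that fit 0.00607% of all probes were called, and the median of the assembly genes was 0.10. With Cy5 alone 0 were called, as were 0% of all probes.

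Markers of blood cell types moved in the same samples. Between states in HF the medians were 0.82 for 19 neutrophil genes, 0.57 for 13 monocyte genes (12 tested in deer), -0.13 for 17 T cell genes and -0.40 for 11 B cell genes. In PR they were 0.18, 0.39, 0.05 and -0.05, and in deer -0.41, -0.05, 0.03 and 0.05. Cytotoxic cell genes had -0.32, -0.02 and 0.05, erythroid genes 0.06, -0.07 and -0.07, and platelet genes -0.08, -0.07 and -0.15. None of these markers passed the test between states. The array medians of the T cell list ran from -0.59 to 0.23 in PR dry and from -0.16 to 0.04 at peak lactation, and those of the neutrophil list from -0.60 to -0.25 and from -0.33 to 0.03. The markers were above background in every group, except CAMP in HF dry and deer, and FCGR1A, CA2 and SLC4A1 in deer. The part of cell makeup in the member differences was not tested.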

How the data were processed

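RNA of 24 blood samples was measured on 2-colour Agilent bovine arrays. Per the file headers, each scanner file gives spot intensity and local background for Cy5 and Cy3, with a log10 ratio computed by the scanner software. Normalized log2 ratios of selected probes come from the 3 lists the authors deposited. The scanner software was Feature Extraction 10.10.1.1 per the file headers and 10.7.3.1 per the submitters' processing notes.

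Background was removed from mean intensity by normexp (offset 50), log2 ratios were adjusted by loess within arrays without the 1417 control spots, and spots of a probe were averaged (limma 3.58.1, statmod 1.5.0, data.table version 1.17.8, R 4.3.3). Figures used matplotlib 3.10.9 in Python 3.11.15. Tests were limited to probes whose Cy5 signal the scanner software called above background on 3 or more of the 4 arrays in at least 1 compared group. limma fitted 6 group means over all 24 arrays, with Benjamini-Hochberg adjustment over all probes tested and a threshold of 0.05. Cy5 and Cy3 alone were read after loess and quantile scaling of mean intensity.

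The series text describes unpaired tests, so no animal term was used. As a check of pairing, deviations from the group means correlated above 0.1 between the states for all 4 HF animals, 2 of the 4 PR animals and all 4 deer. For PR animal 1, which had the largest PR change, the correlation was 0.02, below its 0.11 with another animal. The pairing of that animal, and so its change, is thus not borne out by this check. Precision is limited by the 4 arrays per group.

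The members and gene lists were chosen with earlier results of these data known. By rule, the text could name a fixed set (RPSA, RPLP0 to RPLP2, RPS6, RPL5, RPL11, RPS27A, and second copies with their parent genes) and names, per comparison, the members with the largest and smallest differences (4 each way between states, among those with the same sign in 4 of 4 animals, and 3 each way otherwise), and those past the threshold (at most 10). Members in the authors' lists or past Tukey's comparison (such as RPL31, RPS21, RPL29 and RPL38) and probes shown to compare species were added after their values were seen. Some members that the rule names are not reported here. Other lists were cell type markers and genes of translation. Of the 307 member probes, 258 matched a reference accession, and all 258 gave the same symbol. Alternatives covered background correction, scaling, filters, probe choice, blocks, array weights and left-out arrays. Of these, the scan day as a block and PR dry replicate 1 left out with HF animals 2 and 3 were chosen after seeing the data.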

Additional observations from a re-analysis of the deposited data

Results flagged for a closer look

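In groups of 4 arrays, an array was marked when its gap to the nearest other value took more of the group's range than Dixon's criterion allows. Chance marks about 1 in 20 groups, and 16 of 212 were marked here. The array median of the members was 0.44 on deer lactation replicate 1, with 0.15 as the nearest value, and on that array RPL22 was 1.54 and RPL27 was 1.93. HF dry replicate 2 held 4 of the marks, with RPL5 at 0.77, RPL3 at 0.38, RPS16 at 0.39 and RPL10L at 0.061. On PR dry replicate 1 RPS28 was 0.78 and RPL7L1 was -0.97. RPS2 was 0.48 and RPL11 was 0.44 on PR lactation replicate 2, and RPL5 was -0.19 on PR lactation replicate 1. RPSA was 0.17 on HF lactation replicate 3. RPL3L was -0.79 on deer dry replicate 2, and RPL10 was -0.68 on deer dry replicate 4 and -0.51 on deer lactation replicate 3. No member passed the test of a difference between the changes of state in 2 breeds or species.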

How the results depend on the processing

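Of 46 settings run, the settings that follow turned a sign, changed a call or moved a value. Of 7312 values of named genes by setting, 436 changed sign, 57 lost and 86 gained a call. Except where named below, the cause was not tested. For HF against PR in the dry period, the count of members called was 6 without background correction, 0 with an offset of 16, 0 with the Agilent log ratio, 49 with median centring without loess, 3 with scale normalization, 0 with Cy5 alone, 0 with no filter, 3 with a filter on all 24 arrays, 0 with the mean over a gene's probes, 0 with slide or scan day as a block, 6 with array position, 22 with array weights, 0 with only the compared arrays, 0 without HF animals 2 and 3, 0 also without PR dry replicate 1, and 0 to 45 when 1 array was left out. Over all probes 3.17% were called there, against 5.59% without background correction, 19.3% without loess, 5.86% with scale normalization, 4.71% with the filter on all arrays, 4.47% with array position, 15.9% with array weights and 13.4% without PR dry replicate 2, the array behind the 45. Tukey's comparison called 8 members there before and 0 after Benjamini-Hochberg adjustment, and 4 in PR, 4 in deer and 2 in HF against PR at peak lactation before it. For HF against PR at peak lactation the count was 1 without background correction, 1 with scale normalization and 2 with array weights (1.33%, 6.29% and 3.27% of all probes). Array weights gave 17 in deer and 12 for the deer change against cattle (19.8% and 11% of all probes).

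Without loess the median was 0.61 in PR, -0.75 for the HF change against PR, 0.97 (dry) and 0.13 (lactation) for HF against PR, and 0.81 and 0.75 for deer against cattle. RPL22L1 in deer was then -0.0035. For deer against cattle the setting with Cy5 alone gave medians of 0.25 and 0.24. The Cy5 channel read beside Cy3 gave 0.17 and 0.23 there. The values called Cy5 alone in this section come from the setting and not from that channel reading. With slide or scan day as a block, each with the same values, HF against PR had medians of -0.044 dry and -0.51 at peak lactation. These blocks join the breeds only through PR dry replicate 2, the PR array on the slide of HF animal 4. In the dry period RPL22L1 was 0.13, RPL26L1 -0.054, RPL36AL -0.39 and RPL22 -0.38. At peak lactation RPL22L1 was 0.070, RPL26L1 -0.78, RPS27L -0.90 and RPS4X -0.15. In deer RPS3A was -0.047 (and -0.053 with array weights) and RPL19 -0.027 (-0.040 with the Agilent log ratio).

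With scale normalization, RPL22L1 was -0.68, RPL26L1 -0.40 and RPS2 -0.30 in deer. For the deer change against cattle it gave RPL10L 0.67, RPL22L1 -0.22, RPL22 0.071, RPS28 -0.52 and RPS2 -0.31. Cy5 alone gave RPL22L1 -1.65 in deer, RPL13 -0.013 in PR, and RPL10L 0.32 and RPL22L1 -1.29 for the deer change against cattle. With array position, RPL36 was 0.10 in HF, and RPL22 0.13 for the deer change against cattle, where the mean over probes gave 0.0065 and leaving out PR dry replicate 1 with HF animals 2 and 3 gave 0.089. RPL10L there was 0.23 without deer lactation replicates 2 and 4. RPL22L1 in HF against PR dry was 0.28 with the mean over probes.

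For the HF change against PR, RPLP0 was 0.080 with Cy5 alone, 0.061 with the Agilent log ratio, 0.067 without HF animals 2 and 3 and 0.043 also without PR dry replicate 1, which gave RPL3L -0.015, RPL10L -0.017 and RPL15 in PR -0.0089. RPL10L was -0.080 with the Agilent log ratio, -0.0079 with scale normalization, -0.032 with array weights, -0.020 without background correction and -0.017 with an offset of 16. Leaving out 1 array gave -0.040 to 0.050 for RPL10L, -0.099 to 0.063 for RPLP0 and -0.0089 to 0.21 for RPL15 in PR.

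With the animal as a replicate block, 0 members were called in the 5 comparisons of states, with medians of -0.11, 0.26, 0.17, -0.38 and 0.09, so the pairing changed no call. Blocks could not be fitted for deer against cattle, which share no slide, and the animal block not between groups of different animals.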
